A study of Mus musculus with 12 samples.

Results

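The cells compared here were mouse macrophages grown from bone marrow for 7 days in GM-CSF at 50 ng/mL, either untreated or given plasminogen for 24 h after that plasminogen had been exposed to both EACA and RNases. EACA (6-aminohexanoic acid) is a lysine analogue that occupies the lysine-binding kringle domains of plasminogen, the zymogen of the fibrin-degrading protease plasmin, and RNases degrade RNA. The comparison was of 4 libraries against 4, called treated and untreated below, out of 12 in the series. The other 4 libraries came from cells given plasminogen exposed to EACA with no RNase step, and they are used only where stated. The labels name no group with EACA, RNases or plasminogen alone and no vehicle, and the data do not show which component of the preparation a difference comes from. They also do not say whether replicates are separate animals or cultures, so that each p-value measures the spread between these libraries, which may be technical.

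Of 32246 genes in the deposited table, 10888 reached an FPKM (fragments per kilobase of gene and per 1000000 counted) of 1 or more in 4 or more of the 8 libraries after median-of-ratios scaling, and these were tested. At the border of this limit, Spc25 and Scfd2 were just inside, with a fourth-highest value of 1.001, and Lama5 and Syce2 just outside, at 0.999. Of the tested genes, 9415 reached the limit in all 8 libraries. A further 223 reached it in all 4 treated and in 0 untreated libraries, and 126 in all 4 untreated and in 0 treated libraries. Such genes had to differ, and the counts below include them. Hspa1a, Hspa1b, Il10, Il23a, 2010310C07Rik and Tas2r143, all named below, are among those that reached the limit in treated libraries only. The same may hold for other genes below with an untreated mean under the limit, such as Egln3, Proz, Hspb1, Mt3, Tesk2 and Ifnb1.

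As background, macrophages read foreign and misplaced RNA through Toll-like receptors in endosomes and through helicases in the cytosol. Both routes activate NF-kB, which turns on cytokines and chemokines, and interferon regulatory factors, which turn on interferon beta. Interferon then acts back on the cells through STAT transcription factors and induces a large set of antiviral genes. Damaged proteins are sensed separately by heat shock factor 1, reactive compounds by NRF2 and metal ions by MTF1, and each of these factors drives its own small group of targets.

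The 8 libraries held 12940888 to 21734669 counted reads, read back from the steps of the FPKM values. Of the variance over tested genes, 68.5% lay on a first principal component that separated the groups. The second held 8.26% and placed treated replicate 4 (21.8) opposite treated replicate 2 (-15.6). The ribosomal-RNA-associated transcript Gm26917 took 11% ± 0.732 of reads in untreated and 13.9% ± 0.923 in treated libraries (mean ± SD, n = 4). The exact permutation test (two-sided) gave p = 0.0286, the smallest that 4 against 4 can give. Macrophage markers were abundant: all 11 were tested and their summed level was 5106 to 5550 FPKM in untreated and 4261 to 4964 in treated libraries, with Lyz2 the most abundant. Of the 12 dendritic cell markers, 7 were tested (4 higher, 3 lower). The list summed to 676 to 739 FPKM in untreated and 690 to 784 in treated libraries. It included Itgax at means of 477 untreated and 430 treated, Fscn1 at 117 and 162, Ccr7 at 73.8 and 129 and Batf3 at 34.9 and 16.5. Siglech and Xcr1 stayed under 0.5 in all 8 libraries. The summed neutrophil list was 290 to 368 in untreated and 137 to 171 in treated libraries, in both groups mostly Mmp8, which fell from 295 to 113 on average, whereas S100a9 was at 11.8 and 17.9 and Ngp at 6.32 and 11.7. Of the 6 neutrophil markers tested, 1 was higher and 1 lower, and Ly6g, the defining gene, was at 0 in all untreated libraries and at most 0.131 in treated. The 5 NK cell and 6 B cell markers summed to at most 0.103 and 1.49. In these bulk samples, fewer cells of a type and less RNA per cell cannot be told apart.

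With the treatment, 2745 genes were higher (25.2% of those tested) and 3600 lower (33.1%) at an adjusted p under 0.05, so that 58.3% of genes were called. The values of the 4 treated libraries did not overlap those of the 4 untreated ones for 54.2% of genes. Most differences were small: 4398 called genes changed by less than 1.5-fold, and the median absolute log2 change of called genes was 0.42. Large changes were mostly increases, with 558 genes at least 2-fold higher against 126 lower, 102 at least 4-fold higher against 8 lower, and 18 at least 8-fold higher against 0 lower. Fold changes are on the log2(FPKM + 0.5) scale, which understates those of genes with low values. Below, paired levels are group means of 4 libraries in scaled FPKM, untreated first, and log2 changes are given with ± their SE. The split between higher and lower depends on the scaling. Without any scaling between libraries, 1799 genes were higher and 5479 lower, and the median log2 change of all genes was -0.21 in place of -0.05. Scaled over the tested genes alone, an alternative chosen after seeing the data, 3163 were higher and 3029 lower. Calls of small changes are therefore relative to the scaling, and the lists whose balance turned with it are named where they appear.

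**Figure D1:**
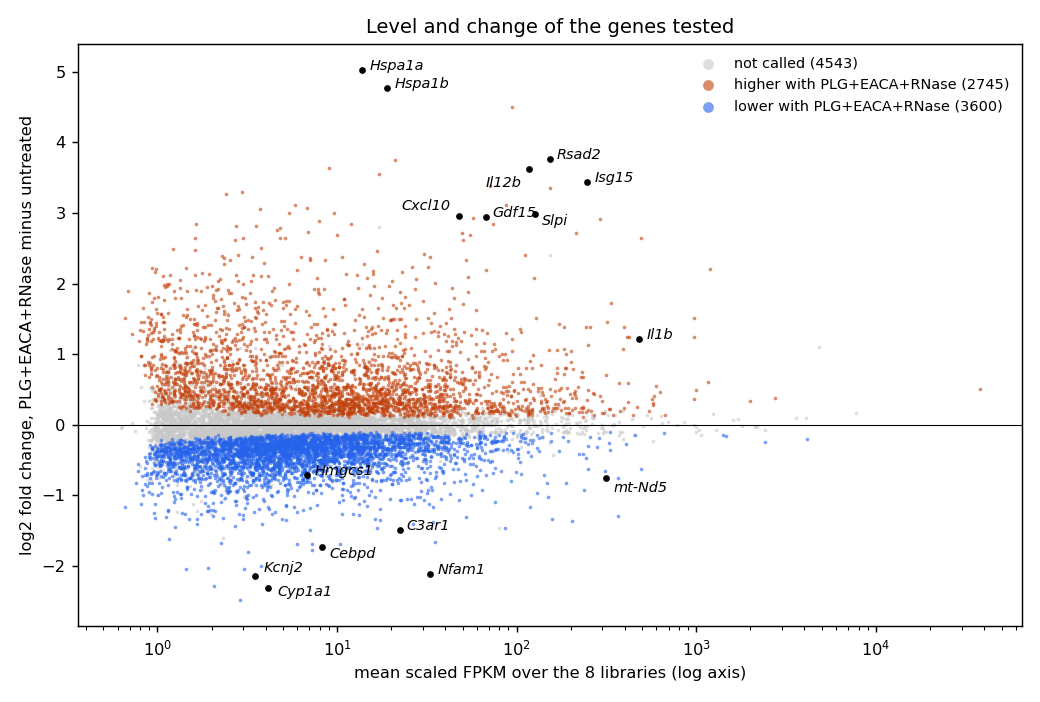
Each point is 1 of the 10888 tested genes, placed by its mean scaled FPKM over the 8 libraries (log axis) and its log2 fold change, treated minus untreated, and coloured by whether it was called at an adjusted p under 0.05. The increases reach log2 5.02 for Hspa1a, whereas Cyp1a1, among the largest decreases, stands at -2.32.

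The largest increases of coding genes included those of HSP70 heat shock proteins (Hspa1a, Hspa1b), interferon-stimulated genes (Oasl1, Rsad2, Isg15, Cmpk2, Ifit2, Isg20, Trim30c, Cxcl10) and the cytokine subunits Il27 and Il12b. Heatr9 and the protease inhibitor gene Slpi, which belong to none of these groups, stood among them. Upstream sequences were searched for the letters that regulators of these groups recognise, and those shown are examples that hold a match. Each line below gives the RefSeq sequence before the gene start, 5′ to 3′ on the gene's strand, from build GRCm38.p6. Capitals in the first 3 mark matches to GAAANNGAA, the core of the interferon-stimulated response element that ISGF3 and interferon regulatory factors bind.
Rsad2 (chr12:26456453-26456702, minus strand): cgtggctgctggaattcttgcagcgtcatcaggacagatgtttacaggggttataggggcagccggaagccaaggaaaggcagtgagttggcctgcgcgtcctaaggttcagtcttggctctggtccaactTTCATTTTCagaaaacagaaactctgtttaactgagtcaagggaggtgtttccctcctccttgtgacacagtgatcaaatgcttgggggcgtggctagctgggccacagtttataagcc
Isg15 (chr4:156200819-156201068, minus strand): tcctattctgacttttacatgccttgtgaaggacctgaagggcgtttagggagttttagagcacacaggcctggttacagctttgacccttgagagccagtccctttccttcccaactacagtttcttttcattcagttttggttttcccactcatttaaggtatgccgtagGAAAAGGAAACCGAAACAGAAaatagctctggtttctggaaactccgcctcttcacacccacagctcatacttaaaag
Cxcl10 (chr5:92348890-92349139, minus strand): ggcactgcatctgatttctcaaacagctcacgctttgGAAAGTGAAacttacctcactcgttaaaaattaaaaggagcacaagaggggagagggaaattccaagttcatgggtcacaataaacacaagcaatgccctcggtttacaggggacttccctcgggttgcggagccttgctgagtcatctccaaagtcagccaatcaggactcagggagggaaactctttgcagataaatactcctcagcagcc
In the next 2, capitals mark GAANNTTC, a facing pair of the units to which heat shock factor 1 binds, and they let the near-identical copies be compared.
Hspa1a (chr17:34972157-34972406, minus strand): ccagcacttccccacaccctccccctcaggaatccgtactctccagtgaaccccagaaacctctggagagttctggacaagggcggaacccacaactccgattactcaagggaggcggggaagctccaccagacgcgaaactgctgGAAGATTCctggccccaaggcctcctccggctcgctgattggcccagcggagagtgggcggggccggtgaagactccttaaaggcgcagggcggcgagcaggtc
Hspa1b (chr17:34959239-34959488, minus strand): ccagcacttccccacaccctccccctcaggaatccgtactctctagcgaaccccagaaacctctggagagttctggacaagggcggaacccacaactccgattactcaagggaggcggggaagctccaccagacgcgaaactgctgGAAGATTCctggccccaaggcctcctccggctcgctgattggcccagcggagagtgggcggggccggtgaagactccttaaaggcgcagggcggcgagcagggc
In the metallothionein gene Mt2 capitals mark TGCNCNC, a loose form of the core of the metal response element of MTF1. Not every stretch marked there need be such an element. In the neutrophil-attracting chemokine gene Cxcl1 capitals mark GGGANNTTC, a kB site core that NF-kB binds.
Mt2 (chr8:94172368-94172617, plus strand): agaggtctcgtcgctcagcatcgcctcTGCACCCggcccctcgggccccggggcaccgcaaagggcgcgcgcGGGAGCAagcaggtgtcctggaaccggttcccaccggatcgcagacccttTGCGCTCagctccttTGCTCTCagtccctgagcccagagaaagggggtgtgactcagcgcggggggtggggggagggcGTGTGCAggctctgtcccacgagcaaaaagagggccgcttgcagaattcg
Cxcl1 (chr5:90890995-90891240, plus strand): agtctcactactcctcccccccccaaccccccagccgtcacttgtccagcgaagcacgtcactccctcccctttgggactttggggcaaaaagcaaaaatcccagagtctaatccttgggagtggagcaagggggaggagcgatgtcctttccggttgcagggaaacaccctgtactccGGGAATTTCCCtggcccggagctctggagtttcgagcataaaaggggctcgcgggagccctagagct

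Isg15 held 3 matches that overlap each other and begin 78, 72 and 66 bases before the start, whereas Rsad2 held 1 match at 119 and Cxcl10 1 at 213. The heat shock pair began 104 bases before the start in both HSP70 genes. Over the 8077 tested genes with a RefSeq entry, searched on both strands in the 250 bases before the gene start, the interferon core occurred in 7.71%. It occurred in 24 of the 38 interferon-stimulated list genes that had an entry (63.2%) and in 16 of 60 genes that rose at least 4-fold (26.7%), against 11 of 87 that fell at least 2-fold (12.6%). The heat shock pair occurred in 5.97% of all and in 8 of 21 heat shock genes (38.1%), and the kB core in 3.6% of all and in 4 of 11 chemokine genes (36.4%). The metal core as searched is short and loose, and its 66.7% among 12 metal response genes stood beside 56.5% of all genes. Each motif was counted on its own, whether or not it overlapped another. These are matches of letters, not sites shown to be used, and of the genes looked at singly, the window held none of the motif searched there for Ifit2, Oasl1 and Cmpk2 (interferon core), Il12b (kB core) and Srxn1 (antioxidant core, TGACNNNGC).

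Interferon-stimulated antiviral genes rose almost as a whole: 45 of 47 tested members were higher (limma, adjusted p under 0.05) and 0 lower, also at an unadjusted p under 0.05, with a median log2 change of 1.64 against -0.05 over all genes tested. Viperin (Rsad2), which makes a chain-terminating nucleotide, was at 21.8, 26.4, 14.9 and 18.3 FPKM in untreated replicates 1 to 4 and at 260, 212, 252 and 421 in treated replicates 1 to 4. The lowest treated library stood far above the highest untreated one (log2 fold change 3.76 ± 0.23, limma adjusted p = 3.67e-06). Isg15, a ubiquitin-like modifier, was at 43.5, 52.7, 31.4 and 36.4 untreated and 423, 337, 444 and 596 treated (log2 fold change 3.44 ± 0.19, limma adjusted p = 3.01e-06). The OAS-like gene Oasl1 was at 7.7, 9.27, 5.63 and 6.69 and 166, 127, 165 and 262 (log2 fold change 4.5 ± 0.22, limma adjusted p = 1.38e-06), although an exon of Gm13822 overlaps it. In each of these genes, treated replicate 4 was the highest and treated replicate 2 the lowest of its group.

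That order ran through the list: all 47 members were highest in treated replicate 4 and lowest in treated replicate 2, against 3469 and 3260 of all 10888 tested genes. The list's median level was 30.6 FPKM in treated replicate 2 and 64.5 in replicate 4. Leaving out any library in turn left 45 or 46 members higher and a median of 1.43 to 1.82. Genes of different action took part. Among blocks to viral RNA and its translation, Ifit2 went from 16.8 to 158 FPKM (log2 3.11 ± 0.30), Ifit1 from 12.2 to 86.9 (log2 2.72 ± 0.26) and Oas3, which makes the activator of RNase L, from 10.3 to 44.6 (2.06 ± 0.23). Cmpk2, a nucleotide kinase next to Rsad2 in the genome, rose from 11.3 to 131 (3.38 ± 0.30), and the exonuclease gene Isg20 from 1.63 to 17.6 (3.0 ± 0.33). Usp18, which removes ISG15 and damps the interferon receptor, rose from 19.2 to 70.1 (1.79 ± 0.27). The 2 members that did not pass were the abundant GTPase gene Gbp2 (342 to 350 FPKM, log2 0.01 ± 0.13) and Ifi207 (20.9 to 27.4, 0.36 ± 0.18), which passed without treated replicate 2 (0.51, limma adjusted p = 0.0247).

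**Figure D2:**
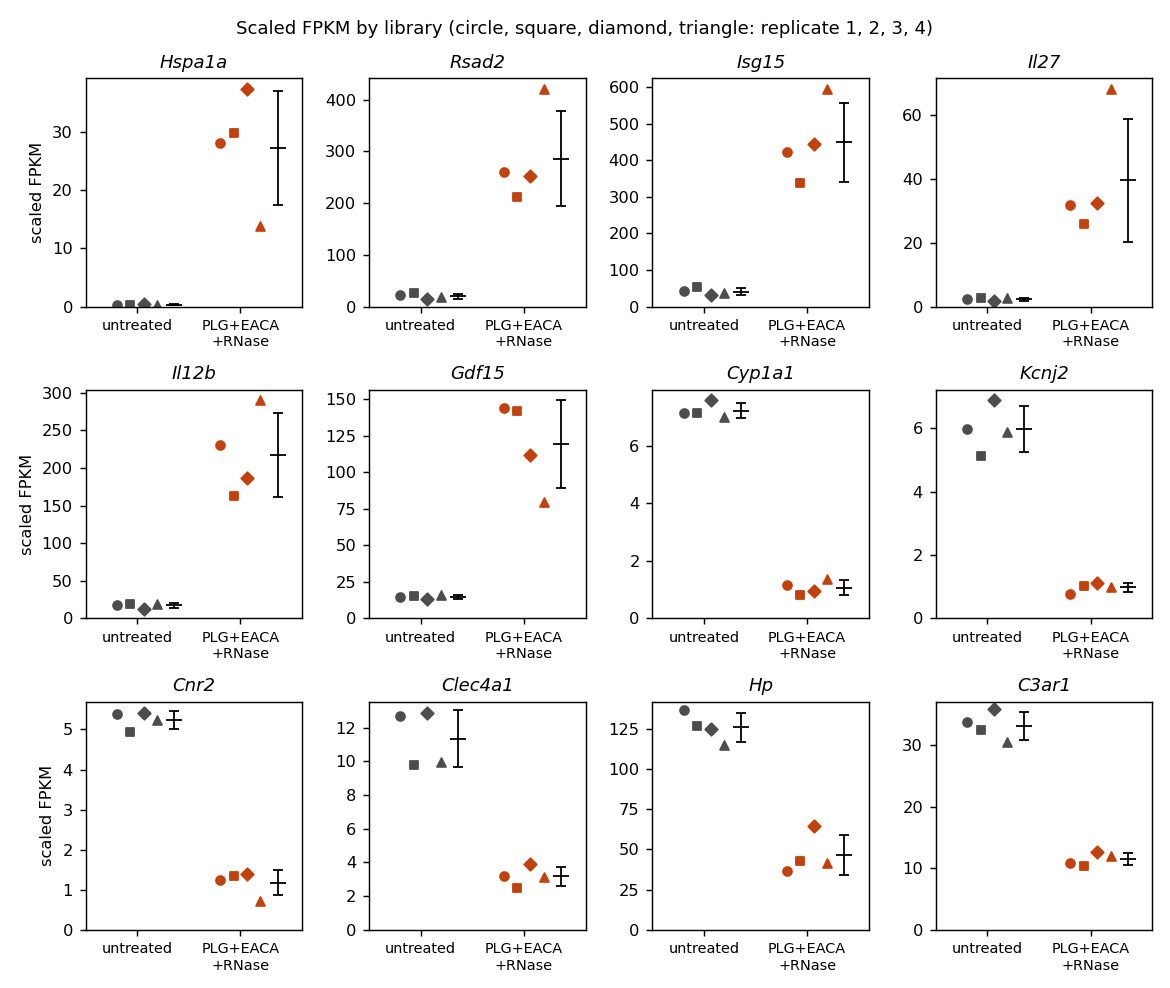
Scaled FPKM of 12 genes in each of the 8 libraries (vertical axes from 0, different in each panel), with symbols for replicates 1 to 4 and a bar for the mean ± SD of each group. Treated replicate 4 is the highest library for Rsad2, Isg15, Il27 and Il12b and the lowest for Hspa1a, and the groups do not overlap in any panel.

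Sensors and adaptors did not move as a group, with 10 of 24 higher, 10 lower and a median log2 change of -0.21. Several interferon-inducible cytosolic receptors were among the higher ones: MDA5 (Ifih1) rose from 9.06 to 51.6 FPKM (log2 2.42 ± 0.15), LGP2 (Dhx58) from 9.23 to 31.9 (1.70 ± 0.23), the Z-nucleic acid receptor Zbp1 from 10.3 to 31.3 (1.5 ± 0.21) and RIG-I (Ddx58) from 8.13 to 23 (1.39 ± 0.24). Tlr2, a receptor for bacterial lipoproteins, was at 105, 102, 101 and 105 FPKM in untreated and 54.4, 36.6, 45.3 and 59 in treated libraries (log2 fold change -1.10 ± 0.13, limma adjusted p = 0.000124). Tlr13, which binds bacterial ribosomal RNA, fell from 25.9 to 14.3 FPKM (log2 -0.84 ± 0.07), and Irak3, a brake on the same pathway, from 33.4 to 15.8 FPKM (log2 -1.06 ± 0.08). Tlr8, Tlr9 and Tlr4 fell as well (log2 -1.11, -0.55 and -0.41), Tlr3 rose (1.02 ± 0.22), and Tlr7, a receptor for single-stranded RNA, did not pass (19.1 to 15.7 FPKM, -0.29 ± 0.12), although it passed without treated replicate 4 (-0.36, limma adjusted p = 0.0305), without scaling (-0.46, limma adjusted p = 0.00553), with upper-quartile scaling and at the 5 FPKM limit (limma adjusted p = 0.038 and 0.0491).

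Of the interferon regulatory factors, STAT proteins and their feedback inhibitors, 9 of 25 were higher and 6 lower, and this balance turned with the scaling: 7 higher and 13 lower without scaling, and 11 lower without treated replicate 4. The increases were led by Irf7, the factor that amplifies interferon genes, at 11.9, 12.3, 8.13 and 8.37 FPKM untreated and 50.7, 29, 43 and 91.7 treated (log2 fold change 2.24 ± 0.31, limma adjusted p = 0.000312). Irf1 rose from 23.3 to 77.4 FPKM (log2 1.71 ± 0.09) and Stat2 from 26.1 to 60.9 FPKM (log2 1.18 ± 0.18). The receptor chains Ifngr1 and Ifngr2 for interferon gamma fell (-0.61 and -0.59), as did Ifnar1 (-0.39 ± 0.07). The feedback inhibitors Socs1 and Socs3 did not pass (-0.51 and -0.39). Both passed without treated replicate 4 (-0.74 and -0.55, limma adjusted p = 0.000662 and 0.0026) and without scaling (-0.68 and -0.56, limma adjusted p = 0.0145 and 0.00893), and Socs3 also with upper-quartile scaling (limma adjusted p = 0.0467).

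Cytokine genes were nearly all higher: 21 of 22 tested, with a median log2 change of 1.37. The IL-12 family had the largest changes. Il12b, the p40 subunit of IL-12 and IL-23, was at 18, 19.3, 12.6 and 18.4 FPKM in untreated and 230, 163, 187 and 290 in treated libraries (log2 fold change 3.62 ± 0.19, limma adjusted p = 1.94e-06). Il27, the p28 subunit of IL-27, was at 2.26, 2.79, 1.61 and 2.55 and 31.8, 25.9, 32.4 and 68 (log2 fold change 3.75 ± 0.28, limma adjusted p = 1.01e-05), with treated replicate 4 standing apart and an exon of Apobr overlapping the gene. Il23a, which pairs with p40 in IL-23, rose from 0.179 to 1.85 (1.81 ± 0.17).
Tnf was at 137, 153, 138 and 195 untreated and 515, 452, 513 and 575 treated (log2 fold change 1.73 ± 0.12, limma adjusted p = 6.99e-06). Il6 rose from 16.4 to 88.2 FPKM (log2 2.33 ± 0.25), Il1b from 280 to 679 FPKM (log2 1.21 ± 0.21) and Il1a from 138 to 372 FPKM (log2 1.39 ± 0.16). The anti-inflammatory Il10 rose from a low level (0.114 to 2.24, 2.12 ± 0.20), Ifnb1 likewise (0.47 to 2.32, 1.55 ± 0.15), and Il1rn, the IL-1 receptor antagonist, from 46.3 to 104 (1.14 ± 0.09). Il10 and Il23a could enter the test only through the treated libraries, so their direction was set by the FPKM limit. The same may hold for Ifnb1. Tgfb1, a suppressive and wound-healing factor, was the only member that fell (120 to 102 FPKM, log2 -0.24 ± 0.07).

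Of 17 tested chemokine genes, 11 rose and 2 fell (median 0.72; 9 and 5 without scaling). The neutrophil attractants Cxcl1 and Cxcl2, which act on CXCR2, rose from 13.2 to 101 FPKM (log2 2.93 ± 0.17), and from 136 to 849 FPKM (log2 2.64 ± 0.09). Cxcl10, an interferon-induced attractant of T cells, was at 10.8, 10.4, 8.56 and 9.13 FPKM untreated and 92.4, 42.6, 70.6 and 137 treated (log2 fold change 2.96 ± 0.30, limma adjusted p = 5.16e-05), without overlap but with a wide range among treated libraries. Ccl5 and Ccl4, attractants of T cells and monocytes, rose from 55.4 to 371 (2.72 ± 0.15) and from 47.6 to 203 (2.08 ± 0.10). The 2 most abundant members did not pass: Ccl17, a CCR4 ligand typical of GM-CSF cultures, was at 2148 to 2111 FPKM (-0.03 ± 0.08) and Ccl6 at 1806 to 1784 (-0.02 ± 0.06). Platelet factor 4 (Pf4) fell from 309 to 163 FPKM (log2 -0.93 ± 0.17).

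NF-kB genes showed smaller changes, 15 of 24 higher and 1 lower (median 0.34; 11 and 4 without scaling). Among the increases were A20 (Tnfaip3), a deubiquitinase that ends signalling, from 29.3 to 73.2 FPKM (log2 1.31 ± 0.07); IkB alpha (Nfkbia) from 126 to 253 FPKM (log2 1.0 ± 0.06); and the survival gene Cflar from 28.1 to 64.2 FPKM (log2 1.17 ± 0.06). Rela and Rel did not pass (0.04 and 0.11), whereas Nfkb2 rose (0.72 ± 0.07). Among enzymes of prostaglandin, nitric oxide and itaconate synthesis 12 of 20 rose and 4 fell. Inducible cyclooxygenase (Ptgs2) was at 68.5, 64.9, 62.7 and 73 FPKM untreated and 523, 424, 493 and 628 treated (log2 fold change 2.92 ± 0.11, limma adjusted p = 3.54e-07), and Ptges, the prostaglandin E synthase downstream of it, rose from 5.32 to 26.2 FPKM (log2 2.18 ± 0.13). The constitutive cyclooxygenase Ptgs1 fell from 28 to 15.5 FPKM (log2 -0.83 ± 0.05). Acod1, which makes itaconate, rose from 501 to 1432 FPKM (log2 1.51 ± 0.09), Nos2 from 22.9 to 59.7 FPKM (log2 1.26 ± 0.26) and the arginine importer Slc7a2 from 66 to 190 FPKM (log2 1.51 ± 0.09). Of 15 inflammasome genes, 5 rose and 4 fell (8 rose when scaled over tested genes), with the sensor Nlrp3 at 33 to 85.6 (1.35 ± 0.09) and Txnip, a thioredoxin-binding protein, at 74.7 to 30.3 (-1.31 ± 0.12).

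The largest increases of all were in the inducible HSP70 genes, which encode the chaperone made on protein damage. Hspa1a was at 0.274, 0.262, 0.477 and 0.248 FPKM in untreated replicates 1 to 4 and at 28.1, 29.9, 37.4 and 13.9 in treated replicates 1 to 4 (log2 fold change 5.02 ± 0.26, limma adjusted p = 1.94e-06). Hspa1b was at 0.793, 0.761, 0.715 and 0.91 and 37.7, 42.7, 49.9 and 18.4 (log2 fold change 4.77 ± 0.26, limma adjusted p = 2.66e-06). The groups were far apart, and treated replicate 4, the highest for interferon-stimulated genes, was the lowest for both. Both genes were under the FPKM limit in all untreated libraries, so they could enter the test only as increases. The counting could split reads between these near-identical genes, so their separate values are uncertain. Over the whole heat shock list the changes were much smaller: 13 of 27 tested members rose, 1 fell, and the median was 0.14. The HSP90 gene Hsp90aa1 rose from 31.3 to 54.5 FPKM (log2 0.79 ± 0.06) and the small heat shock gene Hspb1 from 0.529 to 1.79 (1.21 ± 0.36). The HSP40 gene Dnajb1 (8.36 to 9.02, 0.10 ± 0.05), the co-chaperone Bag3 (22.6 to 24, 0.09 ± 0.06) and Hsp90ab1 (425 to 450, 0.08 ± 0.04) did not pass. Scaled over tested genes alone, 20 of the 27 were higher.

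Metallothioneins, small zinc- and copper-binding proteins, also rose together. Mt1 was at 35.4, 35.1, 37.6 and 31 FPKM untreated and 195, 173, 209 and 170 treated (log2 fold change 2.41 ± 0.08, limma adjusted p = 2.67e-07), Mt2 rose from 2.45 to 17.5 FPKM (log2 2.69 ± 0.24) and Mt3 from 0.843 to 8.45 FPKM (log2 2.76 ± 0.18). The zinc exporter Slc30a1, another MTF1 target, rose from 11.6 to 33.7 FPKM (log2 1.5 ± 0.06), whereas the zinc importer Slc39a10 fell from 2.93 to 0.986 FPKM (log2 -1.21 ± 0.12) and the transferrin receptor Tfrc from 6.5 to 4.73 FPKM (log2 -0.43 ± 0.09). Over the metal list, 9 of 15 rose and 5 fell.

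NRF2 targets, genes against reactive compounds and for glutathione, rose widely: 20 of 24 rose and 0 fell (limma), also at an unadjusted p under 0.05 (median 0.59). Without scaling, 18 were higher and 3 lower. Heme oxygenase 1 (Hmox1) was at 466, 379, 406 and 444 FPKM untreated and 2104, 1926, 2187 and 1650 treated (log2 fold change 2.21 ± 0.10, limma adjusted p = 9.26e-07), without overlap. Sulfiredoxin (Srxn1) rose from 171 to 469 FPKM (log2 1.46 ± 0.09), peroxiredoxin 6 (Prdx6) from 39.1 to 96.9 FPKM (log2 1.3 ± 0.05), the autophagy receptor Sqstm1 from 574 to 1355 FPKM (log2 1.24 ± 0.07) and Gclc, the catalytic subunit of glutathione synthesis, from 20.8 to 52.2 FPKM (log2 1.31 ± 0.09). The widely used target Nqo1 did not pass (87.3 to 91.1, 0.06 ± 0.09), nor did Nfe2l2, which encodes NRF2 (94.9 to 90, -0.09 ± 0.09).

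Integrated stress response genes, the targets of ATF4, were mixed, with a median of -0.09. Of 28 tested, 7 rose and 12 fell, beside 25.2% and 33.1% of all genes tested. Among the higher ones were Ppp1r15a (GADD34), the phosphatase subunit that ends the response, from 32.1 to 78.6 FPKM (log2 1.27 ± 0.09), and Atf3, an inhibitor of inflammatory transcription, from 239 to 390 FPKM (log2 0.71 ± 0.04). Among the lower were the targets Trib3 (50.2 to 28.2 FPKM, log2 -0.83 ± 0.07), Ddit3 or CHOP (35.9 to 21.3 FPKM, log2 -0.75 ± 0.09), the amino acid transporter Slc7a5 (37.7 to 21.3 FPKM, log2 -0.81 ± 0.09) and Atf5 (118 to 68 FPKM, log2 -0.80 ± 0.05). Gdf15, a stress-induced cytokine outside the list, was at 14.6, 15, 13 and 16.1 FPKM untreated and 144, 142, 112 and 80 treated (log2 fold change 2.95 ± 0.17, limma adjusted p = 3.43e-06). Endoplasmic reticulum chaperones and regulators were mixed, with 9 of 21 higher and 5 lower but 4 higher and 9 lower without scaling. BiP (Hspa5) rose from 82.7 to 155 FPKM (log2 0.90 ± 0.07) and the secreted Manf from 9.02 to 15.4 FPKM (log2 0.74 ± 0.07), while Herpud1 fell from 40.3 to 23.2 FPKM (log2 -0.79 ± 0.09) and Xbp1 from 35 to 27.4 FPKM (log2 -0.35 ± 0.05).

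Cyp1a1, the main target of the aryl hydrocarbon receptor, a ligand-activated factor for planar pollutants and tryptophan products, was at 7.13, 7.14, 7.6 and 6.99 FPKM untreated and 1.17, 0.794, 0.93 and 1.36 treated (log2 fold change -2.32 ± 0.11, limma adjusted p = 1.25e-06). The lowest untreated library exceeded the highest treated one several-fold. Its relatives Cyp1b1 (83.7 to 44.7 FPKM, log2 -0.93 ± 0.15) and the receptor's repressor Ahrr (17.4 to 11.7 FPKM, log2 -0.55 ± 0.05) fell less, and Tiparp, another target, rose from 32.5 to 52.3 FPKM (log2 0.68 ± 0.05). Over the list 2 of 11 tested members rose and 4 fell (7 without scaling), beside 25.2% and 33.1% of all genes tested.

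**Figure D3:**
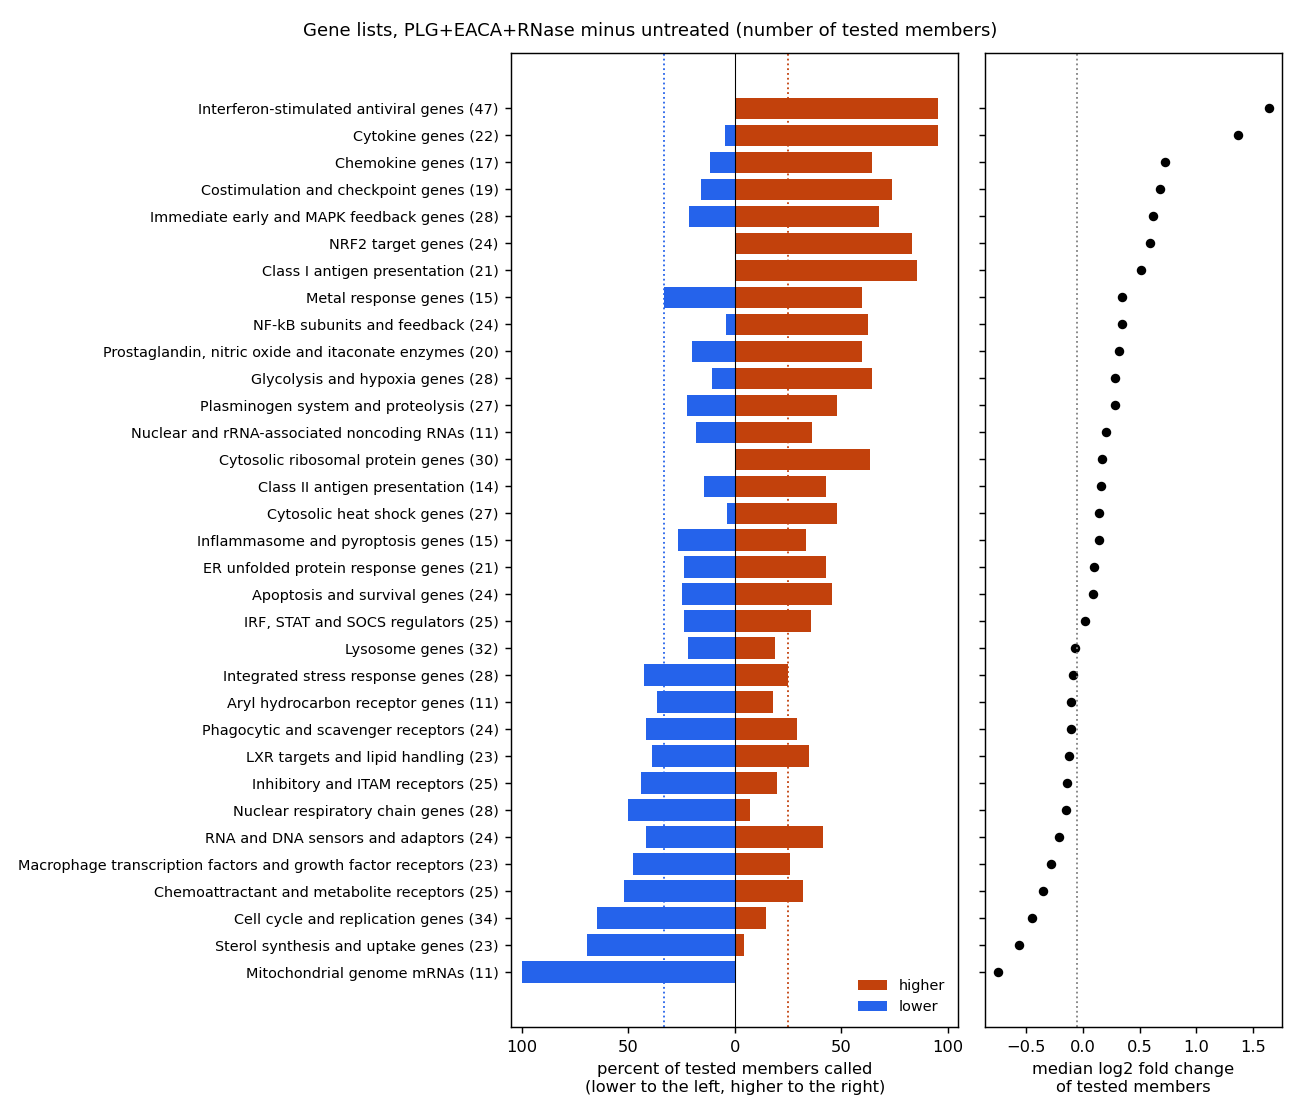
Left: percent of the tested members of each list that were called higher (right of 0) or lower (left of 0) in treated cells, with dotted lines at the shares over all genes tested (25.2% and 33.1%). Right: the median log2 fold change of each list's tested members, with a dotted line at -0.05 for all genes. Interferon-stimulated and cytokine genes stand at the upper end (1.64 and 1.37) and mitochondrial mRNAs at the lower end (-0.75).

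Metabolic lists moved in opposite directions. Of 28 glycolysis and hypoxia genes 18 rose and 3 fell (10 and 7 without scaling). The prolyl hydroxylase Egln3 rose from 0.399 to 3.46 FPKM (log2 2.13 ± 0.18), Ndrg1 from 12.9 to 35.1 FPKM (log2 1.4 ± 0.08) and hexokinase 2 (Hk2) from 14.6 to 28.8 FPKM (log2 0.96 ± 0.05). The untreated mean of Egln3 was under the FPKM limit, so its direction may have been set by that limit. Hif1a, which encodes the alpha subunit of the hypoxia factor HIF-1, rose from 12.3 to 22.9 FPKM (log2 0.86 ± 0.06), but the activity of that factor was not tested. In the lower part of the pathway, Ldha was at 94.7 to 93.3 (-0.02 ± 0.05) and Gapdh at 336 to 371 (0.14 ± 0.06), neither of which passed. Gapdh did pass without treated replicate 2 (0.19, limma adjusted p = 0.00976) and when scaled over tested genes (0.20, limma adjusted p = 0.0128), and stood at -0.03 without scaling.

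All 11 tested mRNAs of the mitochondrial genome fell and 0 rose (limma, also at an unadjusted p under 0.05), with a median log2 change of -0.75. mt-Nd1, a complex I subunit, was at 565, 489, 562 and 467 FPKM untreated and 259, 159, 195 and 245 treated (log2 fold change -1.3 ± 0.15, limma adjusted p = 0.000104), and mt-Nd2 fell from 225 to 90 FPKM (log2 -1.34 ± 0.15). The smallest change was in mt-Co1, a complex IV subunit, from 2622 to 2218 FPKM (log2 -0.24 ± 0.07). Together they took 0.671% ± 0.0444 of reads in untreated and 0.436% ± 0.0353 in treated libraries (exact permutation test, two-sided p = 0.0286). With Gm26917 left out of the total the shares were 0.754% ± 0.045 and 0.506% ± 0.0379. Respiratory chain genes of the nucleus changed less: 14 of 28 fell and 2 rose, with a median of -0.15, but 25 fell without scaling and 9 without untreated replicate 3. Succinate dehydrogenase B (Sdhb) fell from 34.3 to 26.6 FPKM (log2 -0.36 ± 0.05) and the complex I gene Ndufs3 from 13.5 to 10.1 FPKM (log2 -0.40 ± 0.04). Cytosolic ribosomal protein genes showed 19 of 30 higher and 0 lower (limma; 20 and 0 at an unadjusted p under 0.05) at a median of 0.17, but 1 higher and 1 lower without scaling, so that their direction rests on the scaling.

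Genes of cholesterol synthesis and uptake, which the factor SREBP2 controls, were lower: 16 of 23 fell and 1 rose (median -0.57). Acat2, which makes the pathway's acetoacetyl-CoA, was at 4.28, 3.81, 4.57 and 5.17 FPKM untreated and 1.26, 1.79, 1.5 and 1.63 treated (log2 fold change -1.28 ± 0.11, limma adjusted p = 1.84e-05), without overlap. The sterol oxidase Msmo1 fell from 5.4 to 2.33 FPKM (log2 -1.06 ± 0.09), the sterol carrier Stard4 from 4.34 to 1.86 FPKM (log2 -1.04 ± 0.09) and squalene epoxidase (Sqle) from 9.27 to 4.56 FPKM (log2 -0.95 ± 0.08). Insig1, a sensor that restrains the pathway, was the member that rose (15.1 to 18.9 FPKM, log2 0.31 ± 0.06). Targets of the oxysterol receptor LXR and other lipid genes were split, 8 higher and 9 lower of 23. Over all genes tested, 25.2% were higher and 33.1% lower. Of this list, 5 were higher without treated replicate 1, untreated replicate 2 or untreated replicate 4. Without scaling, 4 of its members were higher and 13 lower. The cholesterol exporters Abcg1 and Abca1 fell from 74.2 to 37.2 FPKM (log2 -1.0 ± 0.11), and from 28.2 to 18.2 FPKM (log2 -0.63 ± 0.09); the desaturase Scd2 fell from 24.3 to 10.4 FPKM (log2 -1.19 ± 0.05) and fatty acid synthase (Fasn) from 11.3 to 6.1 FPKM (log2 -0.84 ± 0.05). The lipid droplet coat gene Plin2 rose from 78.3 to 130 FPKM (log2 0.72 ± 0.11).

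Cell cycle genes were also lower, with 22 of 34 fallen and 5 risen (median -0.45). The ribonucleotide reductase subunit Rrm2 was at 7.69, 7.39, 7.25 and 7.14 FPKM untreated and 3.34, 2.99, 3.1 and 2.8 treated (log2 fold change -1.15 ± 0.06, limma adjusted p = 1.68e-06). The replication helicase gene Mcm4 fell from 5.71 to 3.21 FPKM (log2 -0.75 ± 0.07), Ccna2 (cyclin A2) from 2.84 to 1.22 FPKM (log2 -0.96 ± 0.10) and Aurkb from 3.48 to 1.59 FPKM (log2 -0.94 ± 0.14), while the proliferation marker Mki67 did not pass (17.4 to 18.1, 0.06 ± 0.09). The cyclin-dependent kinase inhibitor Cdkn1a (p21) rose from 175 to 281 FPKM (log2 0.67 ± 0.11), and the kinase Cdk6 from 9.91 to 18.5 FPKM (log2 0.87 ± 0.05). Of 28 immediate early genes and MAP kinase feedback genes, 19 rose and 6 fell (median 0.62). Maff and Mafk, small MAF factors that pair with NRF2, rose from 17.2 to 52.4 FPKM (log2 1.58 ± 0.04), and from 14.1 to 34 FPKM (log2 1.24 ± 0.07); the MAP kinase phosphatase Dusp1 rose from 24.4 to 56 FPKM (log2 1.18 ± 0.05) and Junb from 131 to 269 FPKM (log2 1.04 ± 0.07). Fos fell from 3.18 to 2.04 FPKM (log2 -0.54 ± 0.07) and the early factor Egr2 from 73.8 to 53.1 FPKM (log2 -0.48 ± 0.09).

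Of 23 genes of macrophage identity and growth factor sensing, 11 were lower and 6 higher (median -0.28). Over all genes tested, 33.1% were lower and 25.2% higher, so decreases were the more frequent there too. Cebpd, a C/EBP factor induced early in inflammation, was at 11.7, 13.9, 13.2 and 12.6 FPKM untreated and 3.72, 2.82, 3.05 and 4.7 treated (log2 fold change -1.73 ± 0.13, limma adjusted p = 1.17e-05), although an exon of Spidr overlaps it. PU.1 (Spi1) fell from 130 to 99.3 FPKM (log2 -0.39 ± 0.09), the M-CSF receptor gene Csf1r from 306 to 197 FPKM (log2 -0.63 ± 0.04) and the shared GM-CSF receptor chain Csf2rb from 597 to 387 FPKM (log2 -0.63 ± 0.05), while Cebpb rose from 297 to 448 FPKM (log2 0.59 ± 0.07). Among 24 phagocytic and scavenger receptors 7 rose and 10 fell, not far from these shares of all genes. The low-affinity IgG receptor Fcgr3 fell from 242 to 137 FPKM (log2 -0.83 ± 0.08) and the scavenger receptor Msr1 from 65.3 to 44.2 FPKM (log2 -0.56 ± 0.06), while Mincle (Clec4e), a receptor for mycobacterial glycolipid, rose from 108 to 226 FPKM (log2 1.06 ± 0.09).

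Inhibitory and ITAM-linked receptors counted 5 of 25 higher and 11 lower, beside 25.2% and 33.1% of all genes tested. Without treated replicate 2, untreated replicate 1 or untreated replicate 3, 3 were higher. The smallest p among all named decreases was that of Nfam1, an ITAM-bearing receptor of myeloid and B cells, at 52.4, 54.2, 55 and 54.3 FPKM untreated and 11.6, 11.7, 12.6 and 12.5 treated (log2 fold change -2.11 ± 0.04, limma adjusted p = 3.61e-08). All treated libraries lay within a narrow band far below the untreated ones. Siglece, an inhibitory sialic acid receptor, fell from 17.2 to 7.25 FPKM (log2 -1.26 ± 0.25) and Cd200r1 from 20.5 to 10.5 FPKM (log2 -0.94 ± 0.05), whereas Treml4, which amplifies TLR7 signalling, rose from 2.95 to 12.7 FPKM (log2 1.92 ± 0.11).

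Receptors for chemoattractants and metabolites were lower in 13 of 25 cases and higher in 8 (median -0.35). The complement C3a receptor C3ar1 was at 33.8, 32.4, 35.8 and 30.5 FPKM untreated and 10.9, 10.4, 12.7 and 12 treated (log2 fold change -1.49 ± 0.07, limma adjusted p = 1.58e-06). The cannabinoid receptor Cnr2 was at 5.38, 4.93, 5.41 and 5.24 and 1.24, 1.34, 1.4 and 0.722 (log2 fold change -1.80 ± 0.13, limma adjusted p = 1.04e-05), and neither gene's groups overlapped. Cxcr4, the CXCL12 receptor, fell from 38.6 to 14.3 FPKM (log2 -1.41 ± 0.10), and the nucleotide receptors P2ry13 and P2ry6 from 23.5 to 9.19 FPKM (log2 -1.33 ± 0.14), and from 4.48 to 1.83 FPKM (log2 -1.11 ± 0.12). The atypical chemerin receptor Ccrl2 went the other way, at 14.3, 13.8, 13.8 and 15.8 untreated and 103, 90.4, 95.9 and 93.5 treated (log2 fold change 2.69 ± 0.06, limma adjusted p = 3.99e-08). Ccr7, which guides cells to lymph nodes, rose from 73.8 to 129 FPKM (log2 0.81 ± 0.14).

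Of the list of plasminogen system and other proteolysis genes, which holds matrix metalloproteinases too, 13 of 27 tested members rose and 6 fell (median 0.28). The transcript of plasminogen itself (Plg) was at most 0.0332 FPKM in any of the 8 libraries and was not tested. Urokinase (Plau), which cleaves plasminogen to plasmin, rose from 206 to 291 FPKM (log2 0.49 ± 0.10), its receptor Plaur from 172 to 288 FPKM (log2 0.74 ± 0.08) and the urokinase inhibitor PAI-2 (Serpinb2) from 149 to 264 FPKM (log2 0.79 ± 0.17). Among cell-surface binders of plasminogen, annexin A2 (Anxa2) rose from 112 to 162 FPKM (log2 0.52 ± 0.05), while its partner S100a10 (112 to 114, 0.01 ± 0.07) and the receptor Plgrkt (23.5 to 25.4, 0.11 ± 0.06) did not pass. Of the matrix metalloproteinases, collagenase 3 (Mmp13) was at 67.6, 53.8, 60.7 and 59.6 FPKM untreated and 151, 129, 157 and 172 treated (log2 fold change 1.32 ± 0.09, limma adjusted p = 8.83e-06), and neutrophil collagenase (Mmp8) moved the opposite way, at 314, 258, 331 and 277 and 119, 99.7, 125 and 110 (log2 fold change -1.37 ± 0.09, limma adjusted p = 7.06e-06). The abundant Mmp12, macrophage elastase, did not pass (1324 to 1264, -0.07 ± 0.05).

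Antigen presentation through class I rose broadly, in 18 of 21 members with 0 lower (limma, also at an unadjusted p under 0.05, median 0.51). The transactivator Nlrc5 rose from 10 to 30 FPKM (log2 1.49 ± 0.20), the peptide transporter Tap1 from 25.7 to 64.6 FPKM (log2 1.28 ± 0.17) and the immunoproteasome subunit Psmb9 from 10.1 to 18.5 FPKM (log2 0.83 ± 0.14). The H2-Q and H2-T genes share much sequence, so that single values are uncertain. H2-Q4, for example, rose from 26.3 to 55 FPKM (log2 1.04 ± 0.06). Class II genes changed little, 6 of 14 higher and 2 lower, but 2 higher and 4 lower without scaling and 3 higher without untreated replicate 1. The ubiquitin ligase gene March1, which removes class II and CD86 from the surface, fell from 14 to 7.66 FPKM (log2 -0.83 ± 0.07). Of 19 costimulatory and checkpoint genes 14 rose and 3 fell (median 0.68). OX40 ligand (Tnfsf4) was at 16, 17.3, 16.7 and 15.4 FPKM untreated and 54.6, 38.7, 44.6 and 53.3 treated (log2 fold change 1.51 ± 0.10, limma adjusted p = 7.71e-06). Cd40 rose from 22.3 to 56.3 FPKM (log2 1.28 ± 0.18) and PD-L1 (Cd274) from 137 to 238 FPKM (log2 0.80 ± 0.04), and the checkpoint receptor Vsir (VISTA) fell from 31.7 to 18.5 FPKM (log2 -0.77 ± 0.11).

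Lysosomal genes stayed close to the median of all genes, with 6 of 32 higher, 7 lower and a median of -0.07 (21 lower without scaling). Subunits of the proton pump, Atp6v1h (12.4 to 21 FPKM, log2 0.73 ± 0.06) and Atp6v1a (71.2 to 104 FPKM, log2 0.53 ± 0.08), were among the higher, and the hydrolase Gusb (82.2 to 62.9 FPKM, log2 -0.38 ± 0.04) and cathepsin K (Ctsk, 45.4 to 30 FPKM, log2 -0.61 ± 0.13) among the lower. Of 24 apoptosis and survival genes 11 rose and 6 fell, but 9 rose and 10 fell without scaling. Mlkl, which executes necroptosis, rose from 14 to 40.9 FPKM (log2 1.5 ± 0.12) and Mdm2, the ligase of p53, from 56.7 to 133 FPKM (log2 1.22 ± 0.04), while the death receptor gene Fas fell from 23 to 13.1 FPKM (log2 -0.78 ± 0.06).

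The remaining large decreases were in single genes of varied roles. Kcnj2, an inward-rectifier potassium channel, was at 5.99, 5.12, 6.9 and 5.89 FPKM untreated and 0.755, 1.02, 1.12 and 0.992 treated (log2 fold change -2.14 ± 0.10, limma adjusted p = 1.51e-06). Slc9a3r2 (NHERF2), a scaffold for membrane transporters, was at 5.83, 6.45, 6.96 and 6.12 and 1.27, 1.23, 1.16 and 1.17 (log2 fold change -2.0 ± 0.06, limma adjusted p = 2.42e-07). The groups of both were well apart. The lectin receptor Clec4a1 fell from 11.3 to 3.17 FPKM (log2 -1.69 ± 0.13), the pantetheinase Vnn3 from 53.1 to 17 FPKM (log2 -1.66 ± 0.20), haptoglobin (Hp), which binds free haemoglobin, from 126 to 46.4 FPKM (log2 -1.46 ± 0.15) and the p53 target Phlda3 from 24.7 to 8.7 FPKM (log2 -1.46 ± 0.09). Tifab, Eepd1 and Creg2 fell by 1.77, 1.69 and 1.68 on the log2 scale, and Lipt2 by 1.45. Slpi, a secreted inhibitor of neutrophil elastase, was among the largest increases, at 30, 22.6, 30.2 and 30.2 untreated and 249, 214, 222 and 213 treated (log2 fold change 2.98 ± 0.10, limma adjusted p = 2.42e-07).

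Genes of other biotypes differed among themselves. Of 408 long noncoding RNAs tested, 42.4% were higher and 9.56% lower, against 24.6% and 36.1% of 9728 protein-coding genes. Of 129 microRNA genes 16.3% were higher and 2.33% lower, and of 86 small nucleolar RNA genes 11.6% and 4.65%. Of 11 nuclear and rRNA-associated noncoding RNAs, 4 rose and 2 fell. Neat1, the scaffold of nuclear paraspeckles, rose from 31.2 to 65.5 FPKM (log2 1.03 ± 0.13), and Mir155hg, the host transcript of miR-155, from 10.3 to 16.5 FPKM (log2 0.65 ± 0.13). The lncRNA 2010310C07Rik went from 0 to 0.0715 FPKM in untreated to 4.3, 6.87, 5.1 and 2.8 in treated libraries (log2 fold change 3.27 ± 0.22, limma adjusted p = 5.80e-06). The pseudogene Mid1-ps1 rose from 1.07 to 12.6 FPKM (log2 3.07 ± 0.11) and Gm15247, which overlaps Mid1, from 0.83 to 10.8 FPKM (log2 3.11 ± 0.21), and reads of the Mid1 copies could be split between them. The tRNA gene mt-Tn was among the largest decreases (4.99 to 0.759 FPKM, log2 -2.48 ± 0.50). A gene as short as this reaches the FPKM limit on few reads, so its values are uncertain. The same limit holds for the shares of microRNA and small nucleolar RNA genes.

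For named genes, the nearest gene at 10 FPKM or more that ends before them on the same strand was looked up, at any distance. Examples among the larger increases follow. The share of all tested genes with such a neighbour was not counted, so this place does not set these genes apart. Heatr9, at 0.729, 0.896, 0.972 and 1.09 FPKM untreated and 14.9, 19, 19.7 and 15.3 treated (log2 fold change 3.64 ± 0.11, limma adjusted p = 2.12e-07), begins 3603 bases past the end of Ccl5. Proz, a coagulation gene of liver, went from 0.414 to 4.28 (2.36 ± 0.16) and begins 4238 bases past F10, which rose from 108 to 141 (0.38 ± 0.05). 2010310C07Rik and the taste receptor gene Tas2r143, listed at 0 in all untreated libraries and at 1.31, 2.37, 1.93 and 1.82 in treated, lie 10458 and 40025 bases past Zyx. Tesk2 (0.809 to 3.84 FPKM, log2 1.68 ± 0.20) lies 20126 bases past Prdx1. The labels do not say whether counting used the strand. For the same reason, values are uncertain where an exon of another gene overlaps a named gene, as for Irak3, Irf7, Irf1, Il1a, Nfkb2, Sqstm1, Ddit3, Atf5, Manf, Tiparp, Ndufs3, Ccna2, Cdkn1a, Dusp1, Junb, Csf1r, Cebpb, Anxa2, Nlrc5, Tap1 with Psmb9, Cd274, Slpi, Tesk2 and Ankdd1a.

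The same place was measured in coding genes that are near silent here, with a mean under 0.5 FPKM over all 12 libraries, most of which were not tested. For the 390 that begin less than 10 kb past the end of a gene at 5 FPKM or more on the same strand, reads summed to 216, 207, 214 and 209 per 1000000 counted in untreated and 285, 366, 352 and 261 in treated libraries. That is 1.49 times as many (exact permutation test, two-sided p = 0.0286), with treated replicates 2 and 3 the highest. In cells given the preparation without RNase the sum was 173 ± 27.8. Their sum was below the treated mean in each class that follows, too. At 50 to 200 kb from expressed genes it was 601 ± 60.4 against 778 ± 76.8 in treated libraries (exact permutation p = 0.0286). Over 200 kb away it was 611 ± 52.8 against 689 ± 52.3 (exact permutation p = 0.0857). The ratio of treated to untreated was 1.38 for the 821 genes at 10 to 50 kb (p = 0.0286 by the same exact test). It was also above 1 for genes near or at expressed genes but in another position: 1.24 for 328 that overlap one and 1.25 for 1871 otherwise under 50 kb away (exact p = 0.0286 and 0.0571). It was 0.986 for 1921 genes 50 to 200 kb from expressed genes and 0.873 for 1780 farther away (exact p = 0.8 and 0.0286). Unlike the gene values, these sums were not scaled by median of ratios. The scale factors were 1.0468 to 1.0771 for untreated and 0.9181 to 0.9648 for treated libraries. Dividing by them would raise every ratio of treated to untreated, so ratios near or below 1 depend on the scaling. Among tested coding genes with a mean under 5 FPKM, 21.1% of the 388 in the nearest position were higher, against 18% of the other 3652. Lower were 153 of the 388 and 1398 of the 3652, and the median log2 change was -0.13 in both classes. The number of genes expected above 0 at the depth of the shallowest library was 21090 ± 170 untreated and 22921 ± 451 treated, a measure added after seeing the data (exact permutation p = 0.0286).

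**Figure D4:**
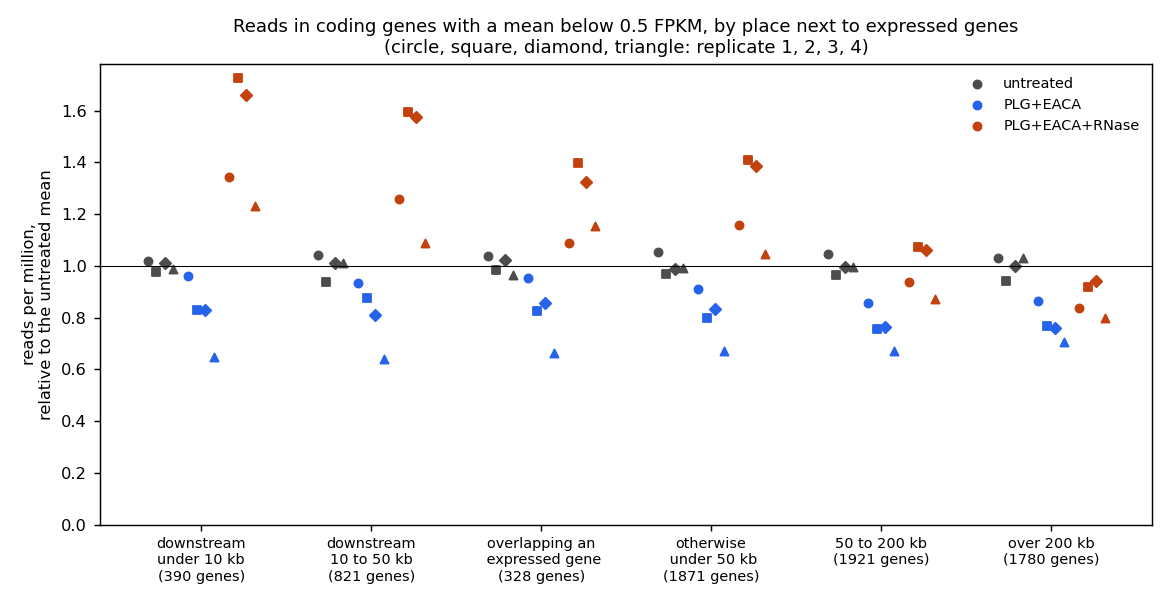
Reads per 1000000 in coding genes with a mean under 0.5 FPKM, divided by the untreated mean of each class, for each of the 12 libraries (symbols for replicates 1 to 4, colours for groups, vertical axis from 0). Classes run from genes just past the end of an expressed gene to genes over 200 kb from any. In the nearest class the treated libraries sum to 261 to 366 reads per 1000000 against 207 to 216 in untreated ones, and in the 50 to 200 kb class the groups overlap.

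To address what RNase exposure of the preparation changed, the treated cells were also set against those given the preparation without RNase, with all 12 libraries scaled together. Of 11105 genes tested, 866 were higher (7.8%) and 1929 lower (17.4%) than without RNase. These counts moved with the settings: 1344 were higher and 977 lower without scaling, 457 higher and 1058 lower without treated replicate 2, and 464 higher and 1007 lower without treated replicate 3. Both groups share the untreated libraries in what follows, so their values are given side by side with the direct test.

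HSP70 stood out among the higher genes. Hspa1a was at 0.3 ± 0.102, 6.35 ± 2.2 and 26.3 ± 9.45 FPKM in untreated cells, without RNase and with RNase (log2 difference 1.95 ± 0.30, limma adjusted p = 0.00356). Hspa1b was at 0.756 ± 0.0798, 8.79 ± 2.58 and 35.7 ± 13 in the same order (log2 difference 1.92 ± 0.28, limma adjusted p = 0.00323). Leaving out any library kept both above the threshold. Of the heat shock list, 5 of 27 were higher than without RNase and 2 lower, but 2 higher and 0 lower without treated replicate 2 or 3, and 2 higher without PLG+EACA replicate 4. Gdf15 was also higher, at 13.9 ± 1.24, 57.3 ± 21.5 and 115 ± 28.9 (log2 difference 1.04 ± 0.25, limma adjusted p = 0.0142), as was Mt3 (log2 difference 0.90, limma adjusted p = 0.00569). Prss34, a basophil and mast cell protease, was higher than without RNase (log2 difference 2.23 ± 0.56, limma adjusted p = 0.0169) on treated values of 1.73, 12.7, 2.46 and 0.989, of which replicate 2 was by far the highest. Without that replicate the log2 difference was 1.58 ± 0.37 (limma adjusted p = 0.0247). The basophil protease Mcpt8 was at 0.475, 3.94, 0.325 and 0.0577 in the same libraries. The basophil and mast cell list summed to 4.14 to 9.62 FPKM in treated and 4.38 to 5.8 in untreated libraries, with Fcer1a and Ms4a2 under 0.5 in all of them, and its part in the Prss34 value was not tested.
Also among the largest differences in this direction were Proz (log2 difference 1.41), Tesk2 (1.57), Ankdd1a (1.61, 32505 bases past Plekho2), Tas2r143 (1.47) and the DNA repair gene Mutyh (1.63, 106901 bases past Prdx1).

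Interferon-stimulated genes were lower with RNase exposure than without it: 44 of 47 were lower and 0 higher (limma, 46 and 0 at an unadjusted p under 0.05), with a median log2 difference of -0.89 against -0.05 over all genes tested. Without treated replicate 2 or 3, 29 and 28 were lower. Ifit2 was at 16 ± 4.02, 358 ± 125 and 151 ± 75.7 FPKM in untreated cells, without RNase and with RNase (log2 difference -1.3 ± 0.30, limma adjusted p = 0.0128). Cxcl10 was at 9.23 ± 0.983, 212 ± 113 and 82.3 ± 38.3 (log2 difference -1.35 ± 0.35, limma adjusted p = 0.0176; 0.0506 without treated replicate 3) and Rsad2 at 19.3 ± 4.67, 527 ± 135 and 275 ± 87.7 (log2 difference -0.96 ± 0.23, limma adjusted p = 0.0139). Each of these 3 genes was thus lower than without RNase and still higher than in untreated cells. Oasl1 and Isg15 did not pass the direct test (log2 differences of -0.44 and -0.57, limma adjusted p = 0.176 and 0.0531). Both passed without treated replicate 4 (-0.63 and -0.71, limma adjusted p = 0.0361 and 0.0158), Isg15 also at the 5 FPKM limit (limma adjusted p = 0.041), and Oasl1 stood at -0.26 without PLG+EACA replicate 4. Among the largest differences in this direction were the interferon-inducible genes Calhm6 (log2 difference -1.38), Ms4a4c (-1.42), Ifi205 (-1.39) and Phf11a (-1.34), of which the last 3 missed the threshold without treated replicate 2 or 3 and the last 2 also without PLG+EACA replicate 4 or without a filter. Of class I genes, 18 of 21 were lower and 0 higher (limma, also at an unadjusted p under 0.05). Of inflammasome genes 10 of 15 were lower (6 without treated replicate 2 or 3), and of NF-kB genes 17 of 24 (11 without treated replicate 3).

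Of 22 cytokine genes 9 were lower and 1, Vegfa, was higher, against the 17.4% lower and 7.8% higher of all genes tested. Il27 was at 2.19 ± 0.488, 89.1 ± 34.5 and 37.9 ± 18.4 FPKM (log2 difference -1.26 ± 0.30, limma adjusted p = 0.013), and Il12b, at 16.2 ± 2.88, 357 ± 173 and 209 ± 53, did not pass (log2 difference -0.70 ± 0.27, limma adjusted p = 0.0752). Il12b passed without treated replicate 4 (-0.85, limma adjusted p = 0.0396) and stood at -0.41 without PLG+EACA replicate 4. Of 17 chemokine genes 2 were lower and 0 higher (limma, 5 and 0 at an unadjusted p under 0.05), and 0 were called without treated replicate 3. NRF2 targets had 2 higher and 4 lower of 24 (2 lower without treated replicate 2 and 1 without treated replicate 3). Cell cycle genes had 1 higher (3 without treated replicate 4) and 6 lower of 34, and ribosomal protein genes 0 called of 30 (limma, also 0 at an unadjusted p under 0.05). Cyp1a1, at 6.86 ± 0.246, 1.41 ± 0.246 and 1.02 ± 0.239, did not pass (log2 difference -0.33 ± 0.12, limma adjusted p = 0.0555), except without treated replicate 4 (-0.42, limma adjusted p = 0.0153) or PLG+EACA replicate 3 (-0.41, limma adjusted p = 0.024). Nfam1 did not pass either (log2 difference -0.13, limma adjusted p = 0.289). A p above the threshold does not show that the 2 preparations acted alike on these genes.

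**Figure D5:**
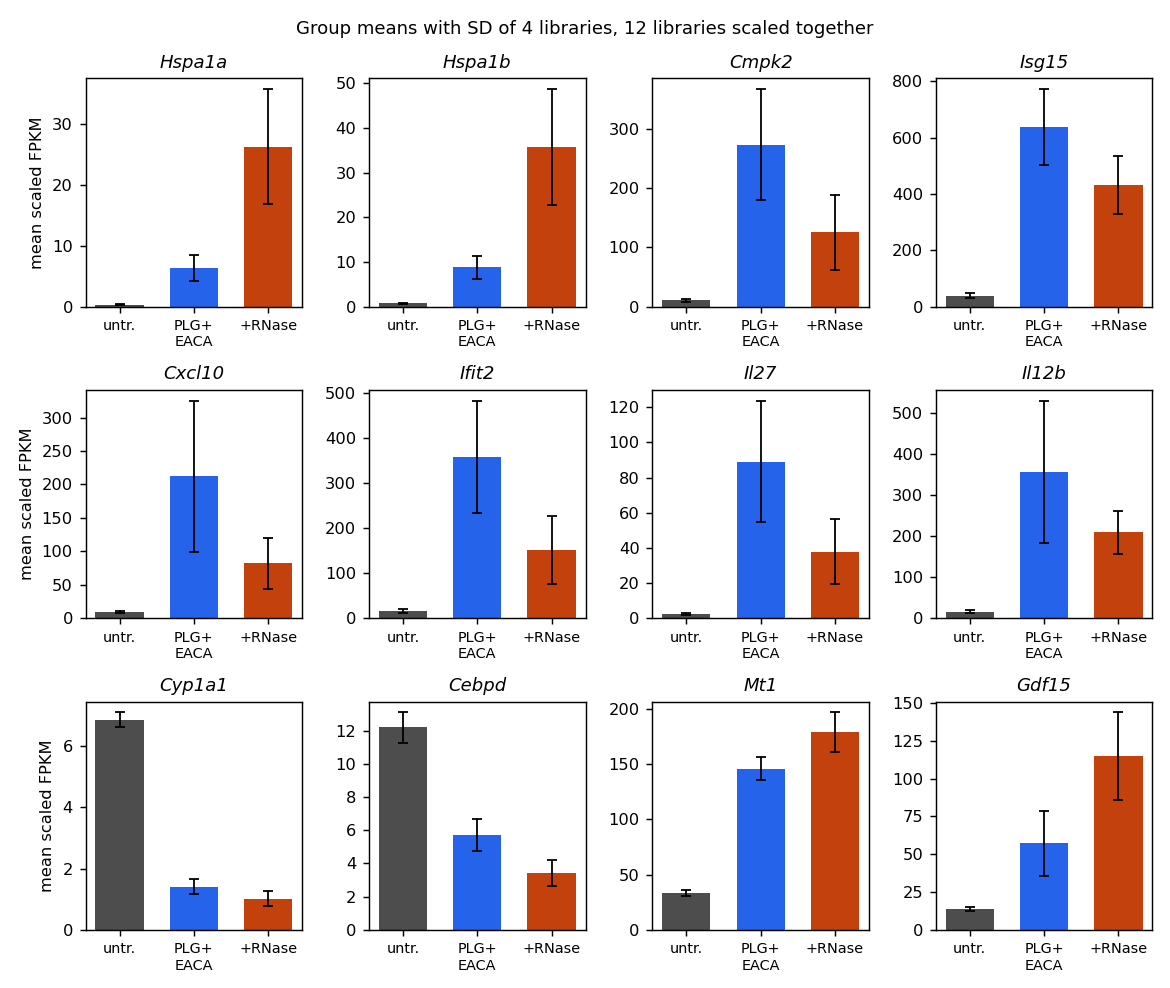
Mean scaled FPKM (bars from 0) with the SD of 4 libraries for 12 genes in untreated cells and in cells given PLG+EACA without or with RNase exposure, all 12 libraries scaled together. The RNase bar is the tallest for Hspa1a, Hspa1b, Mt1 and Gdf15, and it stands between the other bars for Cmpk2, Isg15, Cxcl10, Ifit2, Il27 and Il12b.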

How the data were processed

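RNA was measured in 12 libraries, 4 per group. The authors deposited 1 table of FPKM values per gene and library, on build GRCm38.p6 per the labels. Tools listed, without their role, in the submitters' processing notes are STAR 2.7.11a, featureCounts 2.0.6, cutadapt 4.5, DESeq2 1.40.2 and FastQC 0.12.1. Libraries differ in depth and FPKM balances only the total, so the deposited FPKM values were first scaled by median of ratios over genes above 0 in all 8 libraries.

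The groups were compared with limma 3.58.1 in R 4.3.3 (trend, not robust) on log2(FPKM + 0.5), with Benjamini-Hochberg adjustment over all 10888 genes tested and a threshold of 0.05. The comparison with PLG+EACA used the same steps with all 12 libraries scaled together and a limit of 1 FPKM in 4 of 12. The fit was also run on simulated data with independent noise and few changed genes, unlike these data. That run does not bear on the scaling or on deviations shared by many genes. Shares of reads were compared by the exact permutation test, two-sided. Depth was read from the FPKM steps. In every library at least 99.97% of values above 0 were within 0.1 of a whole number of reads, and no 2 libraries of the treated or of the untreated group agreed within sampling noise. Gene places came from GENCODE M21, which matched 32156 identifiers, and promoters from RefSeq.

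The members and the 33 gene lists (812 symbols, 810 in the table, 763 tested) were chosen with earlier results of these data known. The rule named the 15 largest changes each way among called coding genes at 2 FPKM or more whose groups did not overlap, for each list the 4 smallest p-values and the largest change, 5 genes of other biotypes each way and the 8 largest differences from PLG+EACA each way. Some genes that the rule names are not reported here. Other genes named in the text were chosen after their values were seen, for their known roles. Alternatives were other scalings, pseudocounts (0.1 and 1), limits (none and 5 FPKM), a robust fit, a replicate block, all 12 libraries in the fit and leaving out each library. Scaling over tested genes alone was added after seeing the data.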

Additional observations from a re-analysis of the deposited data

Results flagged for a closer look

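In each group of 4, a library was set apart where its gap to the nearest other library exceeded Dixon's critical share of the group's range, which chance alone gives in about 1 of 20 groups. Among 344 groups of named genes this held for 17 genes, which is about what that rate gives. The single genes listed here therefore do not show by themselves that a library differs. Treated replicate 4 stood above the others of its group for Il27 (68 FPKM), Irf1 (88.9), Csf1 (60.5) and Mir155hg (21.5), and below them for Ndrg1 (28.9) and Zfp36 (39.1). Treated replicate 2 stood above for Prss34 (12.7 FPKM) and Hk2 (31.2) and below for Tlr13 (12.4), and it had the largest share of reads in Gm26917, at 15.2%. Treated replicate 3 was the highest for Vnn3 (26 FPKM) and Hk1 (20.5), and treated replicate 1 stood apart for Gm24339 (1.39). Among untreated libraries, replicate 3 was the highest for Hspa1a (0.477 FPKM). Untreated replicate 2 stood apart for Slpi (22.6 FPKM), Gm15247 (1.44), Gm27688 (2.84) and Cd200r1 (18.8).

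Reads in near-silent coding genes, most of which entered no gene-level test, were above the untreated level: those less than 10 kb past the end of an expressed gene summed to 316 ± 51 reads per 1000000 in treated against 212 ± 4.3 in untreated libraries (n = 4 each, exact permutation p = 0.0286).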

How the results depend on the processing

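Of the 172 genes named by the rule, none changed direction under any setting. The 3 that lost their call (limma) without scaling were Rps2, Rps3 and Rps16, at 0.07 to 0.08. Without a filter Gm26917 (0.50) and Prss34 (1.91) lost theirs, Prss34 also without treated replicate 3 (1.97), untreated replicate 2 (1.68) or untreated replicate 4 (1.75), and at the 5 FPKM limit 143 could be tested. Against untreated cells, 1799 genes were higher and 5479 lower without scaling, 1794 and 2126 at the 5 FPKM limit, and 3163 and 3029 scaled over tested genes. Leaving out 1 library gave 2436 to 2775 higher and 3118 to 3640 lower. Without a filter, 3960 of 31115 genes were higher and 3427 lower, so the excess of decreases turned. Against PLG+EACA, 1344 were higher and 977 lower without scaling, 1512 and 1015 with upper-quartile scaling, 1191 and 1268 scaled over tested genes, 1400 and 1322 without a filter, and 438 and 1641 at the 5 FPKM limit. Leaving out 1 library gave 457 to 1230 higher and 1007 to 2312 lower there, both lowest counts coming without treated replicate 2 or 3. These 2 splits are therefore relative to the scaling and limit, and the cause was not tested. With a replicate block, 2644 were higher and 3367 lower against untreated cells, and 990 and 2120 against PLG+EACA. The labels share numbers but give no pairing. Deviations of same-numbered treated and untreated libraries did not correlate (-0.06 to 0.03), and the block changed no call of the 172 genes against untreated cells. No such correlation was computed with the PLG+EACA libraries, so whether same-numbered libraries are alike there was not tested. Against PLG+EACA, the block moved the SE of Hspa1a from 0.30 to 0.16 and that of Mt3 from 0.16 to 0.19. Of other genes named, Gapdh (limma adjusted p = 0.0487) and, against PLG+EACA, Il12b (0.0314) passed with the block. The differences between treated and untreated in the share of reads lay between 2.36 and 3.11 percentage points for Gm26917, between -0.252 and -0.222 for mitochondrial mRNAs and between 2.54 and 3.07 for the 50 most abundant genes when 1 library was left out. The exact p was then 0.0571, the smallest that 3 against 4 allows. Depth limits the near-silent genes, whose reads were only summed.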
